A study of Mus musculus with 9 samples.

Results

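Creatine kinases and the proteins that carry high-energy phosphate and oxygen in muscle were examined in ventricular RNA of transgenic mice. The members were Ckm, Ckb, Ckmt2, Ak1, Ak3, Mb, Slc25a4 and Vdac1. They were found as the probe sets whose single gene symbol in the platform annotation is one of these names, which gave 13 probe sets among the 12488 on the array, for 8 of the 8251 genes named there. The list of names was chosen by subject, with earlier results from the measured signals of these same arrays in view. A probe set is the group of short oligonucleotides on an Affymetrix array that together report 1 transcript. RNA came from both ventricles of 9 female mice aged 3 months, each on its own array and with a mouse number of its own. All 9 mice overexpressed the receptor of insulin-like growth factor 1 (IGF1R) from a transgene. In 3 mice that transgene was joined by a constitutively active form of the phosphoinositide 3-kinase subunit p110 (IGF1R-caPI3K), in 3 by a dominant negative form (IGF1R-dnPI3K), and in 3 it was the only transgene (IGF1R). The sources used here do not name the promoters that drive the transgenes. Hearts with a PI3K transgene alone and hearts without a transgene were not analysed here, so each difference is between hearts that overexpress the receptor.

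Creatine kinases move phosphate between ATP and creatine, so that phosphocreatine can buffer ATP where it is used quickly. In heart muscle the mitochondrial enzyme charges creatine at the inner membrane, ATP reaches it through the adenine nucleotide translocase, and cytosolic enzymes near the contractile filaments turn phosphocreatine back into ATP. Adenylate kinases serve the same exchange by joining 2 ADP molecules into ATP and AMP, and myoglobin holds oxygen in the muscle cell.

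The upstream sequences of the 3 members with a difference that passed the test are shown because they are the stretches just before the annotated start of these genes, where transcription factors bind. They are RefSeq sequences of the GRCm38.p6 assembly, 5′ to 3′ on the gene's strand, and hold only bases before the annotated gene. Capitals mark matches to the E-box CANNTG, the motif bound by muscle basic helix-loop-helix factors, on either strand. The stretch before Ckm is chr7:19410844-19411093 on the plus strand, that before Ckmt2 is chr13:91876924-91877135 on the minus strand, and that before Slc25a4 is chr8:46211063-46211312 on the minus strand.
Ckm: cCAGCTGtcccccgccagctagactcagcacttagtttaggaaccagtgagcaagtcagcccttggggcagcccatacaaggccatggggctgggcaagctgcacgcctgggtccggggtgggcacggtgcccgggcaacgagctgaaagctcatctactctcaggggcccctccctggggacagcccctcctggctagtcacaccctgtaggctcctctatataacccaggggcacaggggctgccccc
Ckmt2: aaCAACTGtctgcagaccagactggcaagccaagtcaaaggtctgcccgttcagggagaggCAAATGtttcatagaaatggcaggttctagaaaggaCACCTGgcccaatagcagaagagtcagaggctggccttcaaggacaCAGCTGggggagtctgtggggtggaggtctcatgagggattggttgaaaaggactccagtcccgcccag
Slc25a4: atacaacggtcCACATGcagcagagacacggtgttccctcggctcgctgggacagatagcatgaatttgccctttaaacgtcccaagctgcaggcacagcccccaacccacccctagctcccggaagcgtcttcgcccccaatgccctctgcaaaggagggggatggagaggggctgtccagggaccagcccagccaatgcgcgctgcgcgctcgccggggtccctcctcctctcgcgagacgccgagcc
The Ckm stretch held 1 E-box, the Ckmt2 stretch held 4 in 212 bases, and the Slc25a4 stretch held 1. Of 32851 mouse windows of 250 upstream bases, 66.2% held at least 1 E-box. How many windows held 4 or more was not counted, so the number before Ckmt2 has no background beside it. A match to the MEF2 site, whose letters cannot overlap an E-box, was in 0 of the 3 stretches and in 0.508% of the windows. All 8 members had a window in the RefSeq table, and 5 of them had exactly 1.

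The deposited value of a probe set is its signal intensity on a linear scale. Array medians lay between 161 and 197. Precision is limited by there being 9 arrays. In the female mice the 5 probe sets of Y-linked genes reached at most 59.4, which was taken as the level of background. Of 10 cardiomyocyte markers 9 had a probe set, all 9 above that level, and their summed signal was 162113 to 171097 in IGF1R-caPI3K mice, 176129 to 215282 in IGF1R-dnPI3K mice and 150609 to 162069 in IGF1R mice. Some array controls differed between groups. CreX, a control transcript added at hybridisation, had a 3′ over 5′ signal ratio of 1.74 to 1.89 in IGF1R-caPI3K mice, 1.79 to 1.83 in IGF1R-dnPI3K mice and 1.05 to 1.26 in IGF1R mice. For Gapdh this ratio was 0.843 to 0.873 in IGF1R-caPI3K mice, 0.844 to 0.943 in IGF1R-dnPI3K mice and 0.747 to 0.818 in IGF1R mice. For Actb it was 1.01 to 1.04 in IGF1R-caPI3K mice, 1.09 to 1.15 in IGF1R-dnPI3K mice and 1.04 to 1.24 in IGF1R mice. The Actb ratio thus did not place the IGF1R mice below the others. The array of IGF1R-dnPI3K replicate 3 stood apart, with a mean correlation of 0.927 to the other arrays, against 0.947 to 0.956 for the others, and a highest signal of 51164, against 22475 to 29544. The part of these measures in the differences given here was not tested.

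Of the 13 member probe sets, 10 passed a filter on low signals and were tested with limma, fitted to all 7898 probe sets that passed, with Benjamini-Hochberg adjustment over all of them and a threshold of 0.05. These 10 covered 7 genes. Since earlier results were known when the genes were listed, the counts describe them and are no independent support. Differences are log2 of signal with the standard error (SE) and, where given, the 95% interval. In bulk tissue, fewer cells of a type and less RNA per cell cannot be told apart.

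**Figure D1:**
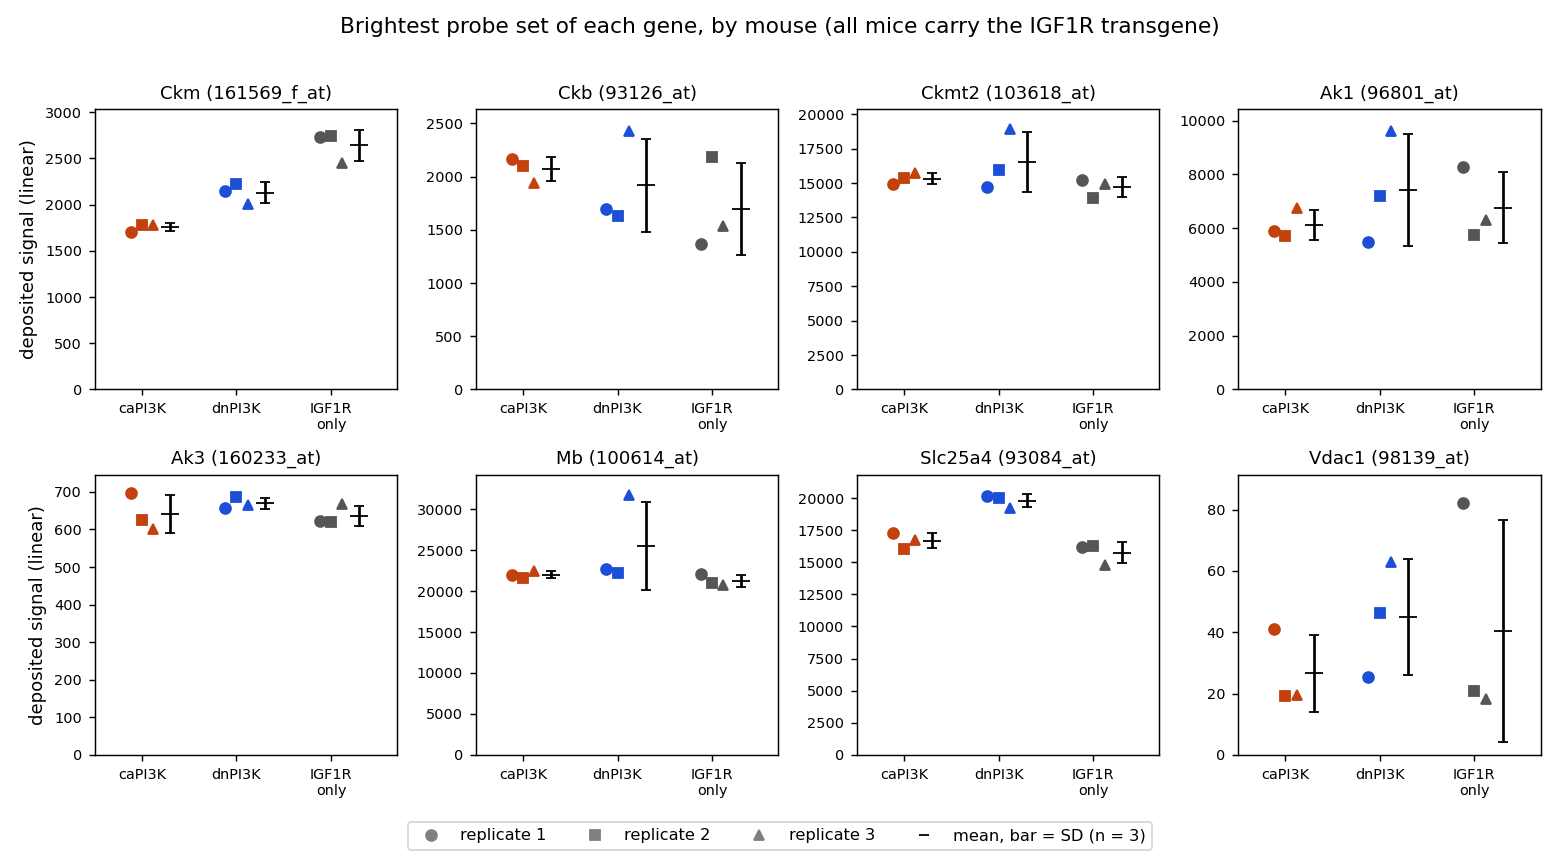
Deposited linear signal (y axis, from 0) of the brightest probe set of each member in each mouse, by group (x axis), with replicates as circles, squares and triangles and the mean with its SD (n = 3) beside them. For Ckm the 3 groups do not overlap, for Slc25a4 the IGF1R-dnPI3K mice lie above both other groups, and the triangle of IGF1R-dnPI3K replicate 3 is the highest point for Ckb, Ckmt2, Ak1 and Mb. The Vdac1 signals, at most 82.3, lie near background.

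Between IGF1R-caPI3K and IGF1R hearts, 1 of the 10 tested member probe sets passed, a Ckm probe set that was lower. Over all probe sets tested, 0.215% passed in this comparison, with 0.0633% as lower (17 in all, and 1451 at an unadjusted p under 0.05). Another 2 member probe sets had groups that did not overlap, which made 3, all lower in IGF1R-caPI3K hearts, where 32.9% of all probe sets had groups that did not overlap and 18.8% were lower in this way. Over the 7 brightest tested probe sets the median difference was 0.05, against -0.04 over all probe sets tested.

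Between IGF1R-dnPI3K and IGF1R hearts, 2 of 10 passed, where 13.5% of all probe sets did, 5.7% as higher and 7.8% as lower. A Ckmt2 probe set was lower and the Slc25a4 probe set was higher. Groups did not overlap for 4 of the 10, 2 in each direction, against 34.4% of all probe sets, 13.6% higher and 20.8% lower. Over all probe sets 450 were called higher and 616 lower, and scaling to a common median turned this split to 832 higher and 333 lower. The median over the 7 brightest was 0.16, against -0.09 over all.

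Between IGF1R-caPI3K and IGF1R-dnPI3K hearts, 0 of 10 passed in limma, where 1.24% of all probe sets did. At an unadjusted p under 0.05 were 1215 of the 7898 probe sets, among them Slc25a4 (0.0163) and both Ckm probe sets (0.0174 and 0.0495), which differed in sign (-0.28 and 0.72). Groups did not overlap for Ckm on its brightest probe set and for Slc25a4, both lower in IGF1R-caPI3K hearts, against 19.5% of all probe sets, 8.66% as lower. The F test over the 3 groups passed 2 of 10, the same Ckm and Ckmt2 probe sets, where 7.24% of all did. The 2 differences from IGF1R share the IGF1R mice as their base.

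**Figure D2:**
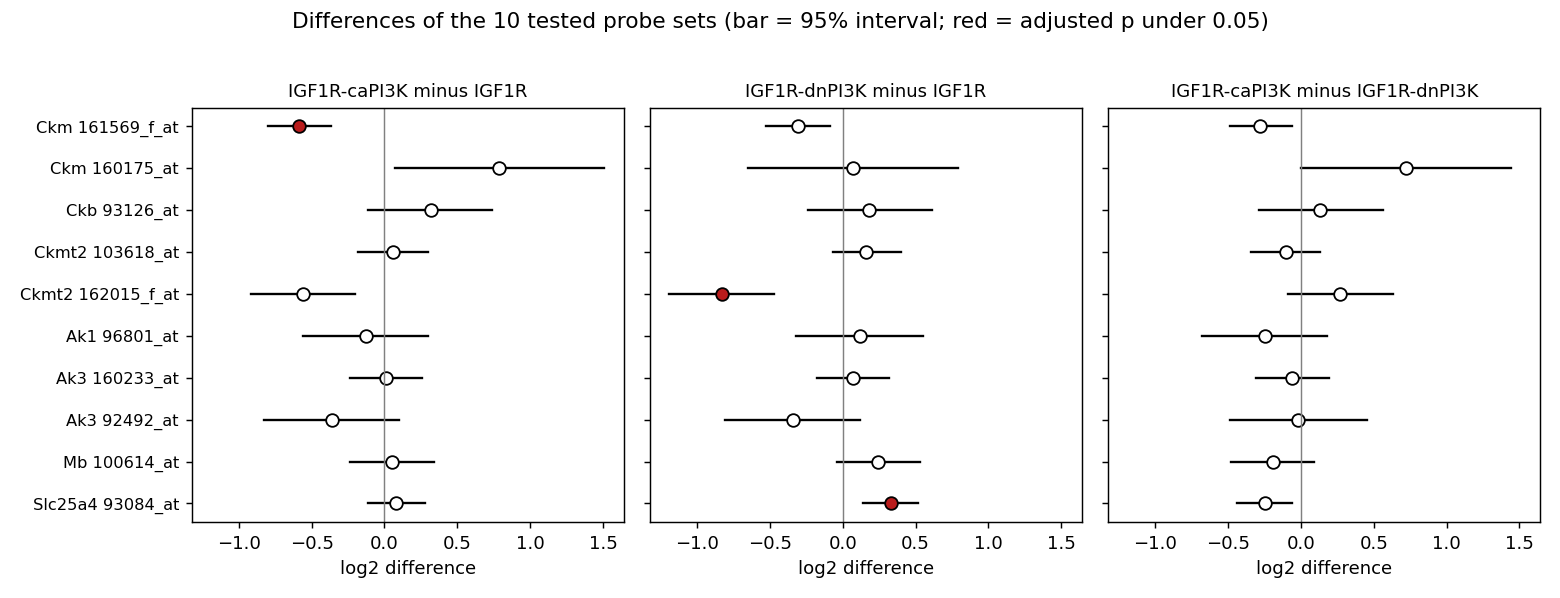
Log2 difference (x axis) of each of the 10 tested member probe sets (rows) in the 3 comparisons (panels), with 95% intervals as bars and red points where the adjusted p was under 0.05. Red points are Ckm 161569_f_at at -0.59 in the left panel, and Ckmt2 162015_f_at at -0.83 and Slc25a4 at 0.33 in the middle panel; the right panel has 0.

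Ckm, the muscle cytosolic creatine kinase that sits at the M-line of the sarcomere, had its brightest probe set, 161569_f_at, lowest in IGF1R-caPI3K hearts. Its signals were 1708.7, 1782.7 and 1776.9 in IGF1R-caPI3K mice, 2152.1, 2227.8 and 2007.7 in IGF1R-dnPI3K mice, and 2733.1, 2737.5 and 2452.2 in IGF1R mice. Every IGF1R-caPI3K mouse lay below every IGF1R-dnPI3K mouse, and every one of those lay below every IGF1R mouse. Ckm signal on 161569_f_at fell to 0.666 times the IGF1R level in IGF1R-caPI3K hearts, a difference of -0.59 (SE 0.10, limma adjusted p = 0.0482). In IGF1R-dnPI3K hearts the difference from IGF1R was -0.31 (SE 0.10) and did not pass (limma adjusted p = 0.0603). That between IGF1R-caPI3K and IGF1R-dnPI3K hearts was -0.28 (95% interval -0.49 to -0.06) and did not pass either (limma adjusted p = 0.22). The IGF1R-dnPI3K difference from IGF1R passed in 3 other settings. These were quantile normalization (-0.37, limma adjusted p = 0.0324), the floor at percentile 40 (0.0487) and no filter (0.0446).

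The Ckm call between IGF1R-caPI3K and IGF1R hearts lay close to the threshold. The difference ran from -0.65 to -0.49 over the other settings of the same probe set, and 8 of the 19 kept the call. It was lost with scaling to a common median (adjusted p = 0.073), without the filter (0.063), without the variance trend (0.101), with mouse number series as a blocking factor (0.0691) and without IGF1R-dnPI3K replicate 2 (0.0606). It was also lost without any 1 of the IGF1R mice (0.146, 0.12 and 0.169) or of the IGF1R-caPI3K mice (0.17, 0.166 and 0.162). Without IGF1R-dnPI3K replicate 3 the limma adjusted p was 0.00759, and with only the 2 groups compared it was 0.00769.

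The other Ckm probe set, 160175_at, did not go the same way. It had signals of 272.0, 272.3 and 144.2 in IGF1R-caPI3K mice, 113.4, 146.5 and 143.9 in IGF1R-dnPI3K mice, and 188.8, 118.5 and 92.7 in IGF1R mice. The first 2 IGF1R-caPI3K mice were the highest, and the third lay among the mice of the other groups. The lowest signals on 160175_at lay near the cut of the filter on low signals, which was 98.6 to 119 across the arrays. The difference between IGF1R-caPI3K and IGF1R hearts was 0.79 (SE 0.33), of opposite sign to that of 161569_f_at, and did not pass (limma adjusted p = 0.236). Between IGF1R-dnPI3K and IGF1R hearts it was 0.07 (SE 0.33, limma adjusted p = 0.902). The deposited table does not say which of the Ckm probe sets follows the transcript, and a direction for Ckm rests on 161569_f_at alone.

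Fast skeletal muscle also makes Ckm in large amounts, so markers of that tissue were set beside it. All 13 listed markers had a probe set, and 4 (Tnnt3, Tnni2, Myh1 and Myh2) were at background on all 9 arrays. Their summed signal was 19380 to 20901 in IGF1R-caPI3K mice, 5862 to 7506 in IGF1R-dnPI3K mice and 13819 to 14578 in IGF1R mice. Most of that sum came from Myl1 and Casq1. Myl1, a fast myosin light chain, averaged 10870 ± 925 in IGF1R-caPI3K mice, 1985 ± 565 in IGF1R-dnPI3K mice and 6677 ± 545 in IGF1R mice (SD, n = 3 each). Casq1, a calcium-binding protein of the sarcoplasmic reticulum, averaged 6875 in IGF1R-caPI3K mice, 2139 in IGF1R-dnPI3K mice and 5163 in IGF1R mice. The list did not move as one: of its 9 tested markers 3 fell and 1 rose between IGF1R-dnPI3K and IGF1R hearts, where 7.8% of all probe sets fell and 5.7% rose. Atp2a1, the calcium pump of fast muscle, rose by 0.86 on the log2 scale (limma adjusted p = 0.0471), while Mylpf was at -0.03, Myh4 at 0.15 and Pvalb at 0.17, none of them passing. Between IGF1R-caPI3K and IGF1R hearts 0 of these 9 markers passed, where 0.215% of all probe sets did. Myl1 differed there by 0.70 (limma adjusted p = 0.104) and Casq1 by 0.42 (0.272). Between IGF1R-caPI3K and IGF1R-dnPI3K hearts 3 markers were called higher and 0 lower, where 1.24% of all probe sets passed. The part of these markers in the Ckm values was not tested.

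Ckb, the cytosolic creatine kinase first described in brain and also made in heart, did not pass in any comparison. Its only probe set had signals of 2167.6, 2100.7 and 1945.0 in IGF1R-caPI3K mice, 1697.9, 1628.4 and 2425.2 in IGF1R-dnPI3K mice, and 1363.6, 2187.8 and 1538.2 in IGF1R mice. All groups overlapped, and 1 mouse of each of the last 2 groups lay well above its 2 companions. The difference was 0.32 (95% interval -0.11 to 0.74, limma adjusted p = 0.408) between IGF1R-caPI3K and IGF1R hearts and 0.18 (-0.24 to 0.61, limma adjusted p = 0.543) between IGF1R-dnPI3K and IGF1R hearts. Between IGF1R-caPI3K and IGF1R-dnPI3K hearts it was 0.13 (-0.29 to 0.56). Without IGF1R-dnPI3K replicate 3 the second was 0.00089 and the third 0.32, and neither passed (limma adjusted p = 0.997 and 0.488).

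Ckmt2, the sarcomeric mitochondrial creatine kinase of the space between the mitochondrial membranes, gave differing answers from its 2 tested probe sets. The brightest, 103618_at, had signals of 14899.1, 15347.2 and 15705.6 in IGF1R-caPI3K mice, 14721.7, 15934.7 and 18948.4 in IGF1R-dnPI3K mice, and 15255.2, 13890.9 and 14950.3 in IGF1R mice. The groups overlapped, with IGF1R-dnPI3K replicate 3 highest. Differences from IGF1R were 0.06 (95% interval -0.18 to 0.30, limma adjusted p = 0.798) in IGF1R-caPI3K hearts and 0.16 (-0.07 to 0.40, limma adjusted p = 0.32) in IGF1R-dnPI3K hearts, so on this probe set a fall of the size seen on the other lies outside both intervals. With quantile normalization the signs turned, to -0.14 and -0.21, still without passing. With IGF1R-dnPI3K replicate 3 left out the second was 0.06 (limma adjusted p = 0.63).

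The probe set Ckmt2 162015_f_at had signals of 3469.7, 3326.8 and 3569.2 in IGF1R-caPI3K mice, 2955.8, 3626.8 and 2188.3 in IGF1R-dnPI3K mice, and 5569.5, 4624.3 and 5096.4 in IGF1R mice. Every mouse with a PI3K transgene lay below every IGF1R mouse, and the groups with a PI3K transgene overlapped each other. Ckmt2 signal on 162015_f_at fell to 0.563 times the IGF1R level in IGF1R-dnPI3K hearts, a difference of -0.83 (SE 0.16, limma adjusted p = 0.0162). In IGF1R-caPI3K hearts the difference was -0.56 (SE 0.16) and did not pass (limma adjusted p = 0.122), and IGF1R-caPI3K minus IGF1R-dnPI3K was 0.27 (95% interval -0.09 to 0.63). The array that stood apart was the lowest of the 9. Without IGF1R-dnPI3K replicate 3 the IGF1R-dnPI3K difference was -0.63 (limma adjusted p = 0.0138) and the IGF1R-caPI3K difference of -0.56 passed as well (0.0151). The IGF1R-caPI3K difference also passed with only the 2 groups compared (limma adjusted p = 0.0109).

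The IGF1R-dnPI3K call on 162015_f_at held in 14 of 19 other settings. It was lost without the filter (adjusted p = 0.0573), with only the 2 groups compared (0.0557), and without IGF1R replicate 1 (0.0538) or 3 (0.0625). With mouse number series as a blocking factor the difference was -0.79 and the call was lost, in a fit that leaves 1 IGF1R-dnPI3K mouse in this comparison. The third Ckmt2 probe set, 161876_r_at, was at background on all 9 arrays, with 4.7 to 26.7 in IGF1R-caPI3K mice, 13.8 to 28.1 in IGF1R-dnPI3K mice and 7.8 to 30.9 in IGF1R mice.

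**Figure D3:**
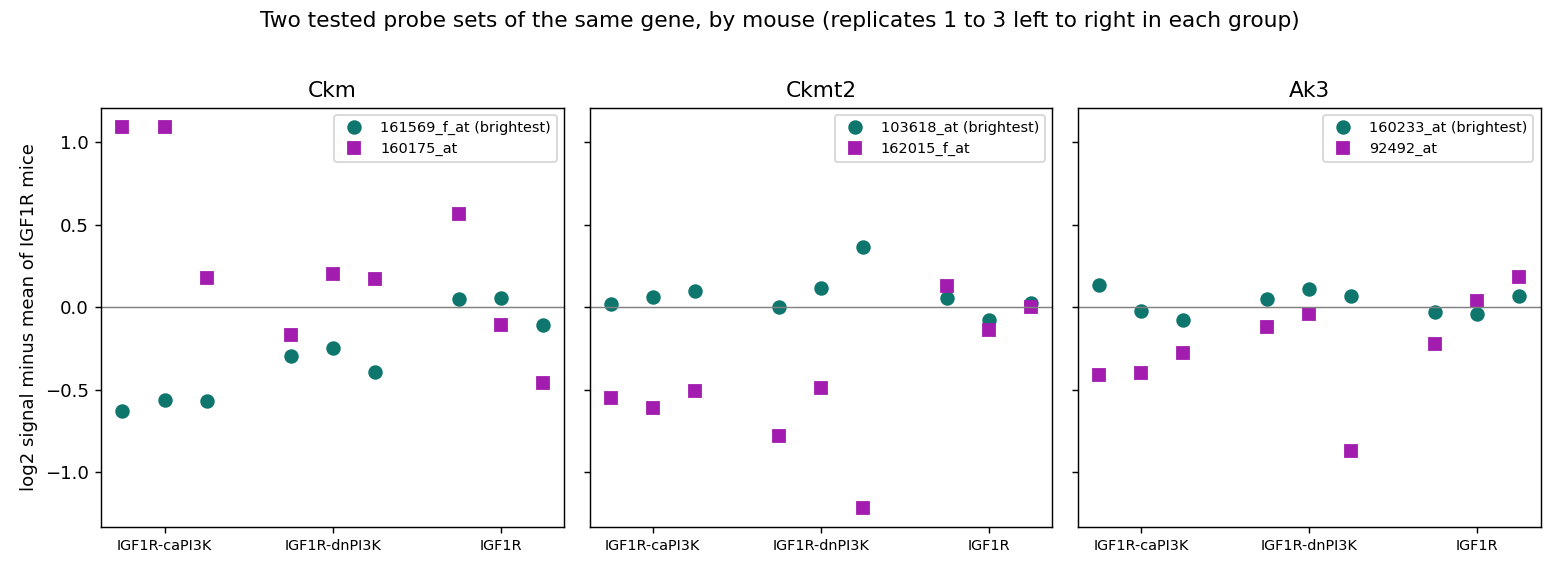
Log2 signal of the tested probe sets of Ckm, Ckmt2 and Ak3 in each mouse, minus the mean of the IGF1R mice for that probe set (y axis), with groups on the x axis and replicates 1 to 3 from left to right in each. In IGF1R-caPI3K mice the Ckm circles lie between -0.63 and -0.56 and the squares between 0.18 and 1.09, and the Ckmt2 squares lie between -0.61 and -0.51 and the circles between 0.02 and 0.10.

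The probe set names of both lower probe sets end in _f_at, an ending Affymetrix gives where probes may match several related transcripts, which was not tested here. Among the 616 tested probe sets with this ending, the median difference was -0.11 between IGF1R-caPI3K and IGF1R hearts and -0.15 between IGF1R-dnPI3K and IGF1R hearts, and 63.1% and 64% of them lay below 0. The 6380 tested probe sets with the plain ending _at had medians of -0.03 and -0.09. Of the _f_at class, 10.9% were at or below the Ckm difference between IGF1R-caPI3K and IGF1R hearts, against 6.27% of all probe sets. At or below the Ckmt2 difference between IGF1R-dnPI3K and IGF1R hearts were 7.47% of the class and 6.19% of all.

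**Figure D4:**
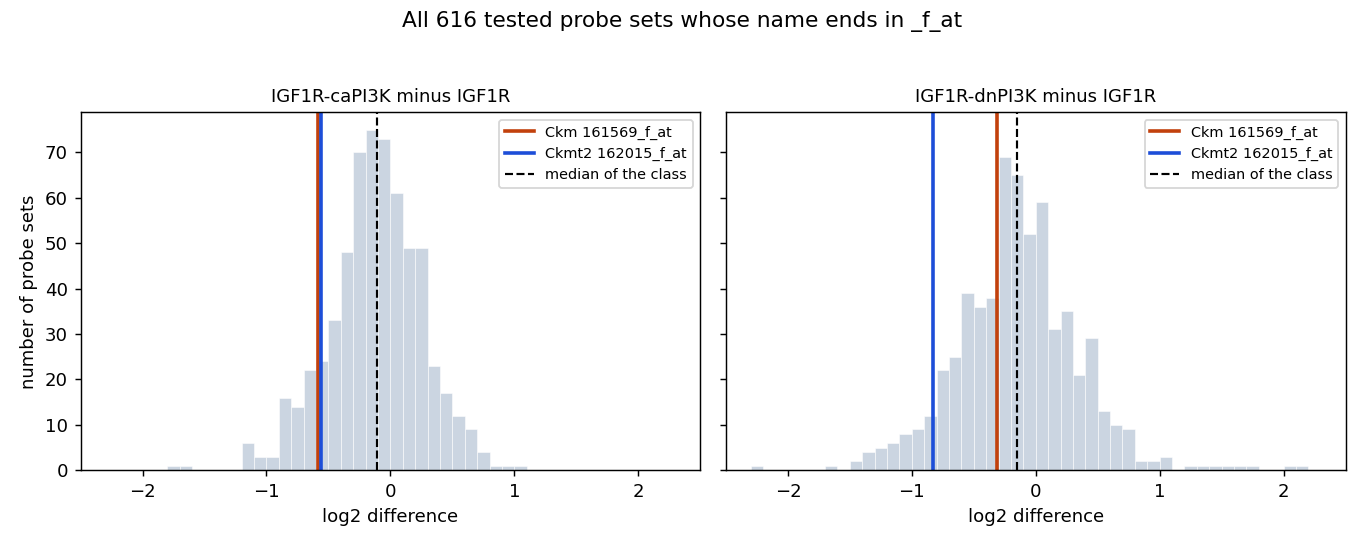
Number of the 616 tested probe sets with a name ending in _f_at (y axis) by log2 difference (x axis), for IGF1R-caPI3K minus IGF1R (left) and IGF1R-dnPI3K minus IGF1R (right), with lines at Ckm 161569_f_at, Ckmt2 162015_f_at and the class median. The class medians are -0.11 and -0.15, and Ckmt2 162015_f_at at -0.83 lies further from the median on the right than Ckm 161569_f_at at -0.31.

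Ak1, the main cytosolic adenylate kinase of muscle, did not pass in any comparison. It had signals of 5913.7, 5712.3 and 6733.8 in IGF1R-caPI3K mice, 5481.5, 7204.6 and 9619.4 in IGF1R-dnPI3K mice, and 8267.3, 5740.8 and 6299.1 in IGF1R mice. The groups overlapped, and the IGF1R-dnPI3K mice spanned both the lowest and the highest signal. Differences from IGF1R were -0.13 (95% interval -0.56 to 0.30) in IGF1R-caPI3K hearts and 0.12 (-0.32 to 0.55) in IGF1R-dnPI3K hearts. Without IGF1R-dnPI3K replicate 3 the second turned to -0.09.

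Ak3, the GTP:AMP phosphotransferase of the mitochondrial matrix, had 2 tested probe sets. The brightest, 160233_at, had signals of 698.1, 625.8 and 602.1 in IGF1R-caPI3K mice, 658.1, 685.8 and 665.7 in IGF1R-dnPI3K mice, and 623.1, 618.9 and 667.5 in IGF1R mice. It stayed within a narrow range, with differences from IGF1R of 0.01 (95% interval -0.24 to 0.26) in IGF1R-caPI3K hearts and 0.07 (-0.18 to 0.32) in IGF1R-dnPI3K hearts. The other, 92492_at, had 368.8, 371.0 and 403.8 in IGF1R-caPI3K mice, 450.2, 477.3 and 267.5 in IGF1R-dnPI3K mice, and 419.9, 503.6 and 556.5 in IGF1R mice. Every IGF1R-caPI3K mouse lay below every IGF1R mouse on 92492_at, while the IGF1R-dnPI3K mice overlapped both. Its differences from IGF1R, -0.36 (SE 0.21, limma adjusted p = 0.39) in IGF1R-caPI3K hearts and -0.34 (SE 0.21, limma adjusted p = 0.288) in IGF1R-dnPI3K hearts, did not pass, and the second was -0.08 without IGF1R-dnPI3K replicate 3.

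Mb, the oxygen-binding haem protein myoglobin, had signals of 21935.7, 21571.3 and 22466.7 in IGF1R-caPI3K mice, 22702.4, 22164.4 and 31687.2 in IGF1R-dnPI3K mice, and 22040.5, 21005.7 and 20692.1 in IGF1R mice. The IGF1R-dnPI3K mice lay above the IGF1R mice without overlap, 1 of them far above. The difference was 0.24 (95% interval -0.04 to 0.53, limma adjusted p = 0.222) between IGF1R-dnPI3K and IGF1R hearts, and 0.05 (-0.24 to 0.34) between IGF1R-caPI3K and IGF1R hearts. Neither passed. Without IGF1R-dnPI3K replicate 3 the first was 0.08, and with quantile normalization it was -0.22 and passed as lower (limma adjusted p = 0.0344), so no direction is given for Mb. A second Mb probe set, 100615_at, was at background on all 9 arrays.

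Slc25a4, the adenine nucleotide translocase of heart and skeletal muscle mitochondria, was higher in IGF1R-dnPI3K hearts on the deposited scale, but not with quantile normalization. Its signals were 17284.5, 16068.8 and 16716.5 in IGF1R-caPI3K mice, 20139.3, 20033.1 and 19215.5 in IGF1R-dnPI3K mice, and 16203.2, 16233.6 and 14814.4 in IGF1R mice. Every IGF1R-dnPI3K mouse lay above every mouse of the other groups, which overlapped each other. Slc25a4 rose 1.26-fold in IGF1R-dnPI3K hearts over IGF1R hearts, a difference of 0.33 (SE 0.09, limma adjusted p = 0.0336) on the deposited scale. Between IGF1R-caPI3K and IGF1R hearts it was 0.08 (95% interval -0.11 to 0.28), and between IGF1R-caPI3K and IGF1R-dnPI3K hearts -0.25 (SE 0.09, limma adjusted p = 0.214).

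The Slc25a4 call depended on the scaling of the arrays. With quantile normalization the IGF1R-dnPI3K difference was -0.04 and did not pass (limma adjusted p = 0.859), and with scaling to a common median it was 0.50 and passed (0.0222). The signals of bright probe sets differed between the groups as a whole: the 99th percentile of an array was 8998 to 9418 in IGF1R-caPI3K mice, 9754 to 11962 in IGF1R-dnPI3K mice and 8180 to 8499 in IGF1R mice. Of the 9 cardiomyocyte markers tested, 4 were higher and 1 lower between IGF1R-dnPI3K and IGF1R hearts, against 5.7% and 7.8% of all probe sets. Myh6 differed by 0.39 (limma adjusted p = 0.0383) and Tnnc1 by 0.59 (0.0297), and with quantile normalization these were -0.07 and 0.12, neither passing. Ryr2 was lower, at -0.55 (limma adjusted p = 0.017), and Atp2a2 at -0.05 and Actc1 at 0.02 did not pass. The call held in 6 of 19 other settings. It was lost without any 1 of the IGF1R mice (adjusted p 0.0781, 0.0798 and 0.123) or of the IGF1R-caPI3K mice (0.0563, 0.0589 and 0.0607), and without IGF1R-dnPI3K replicate 2 (0.0696). It was also lost with the floor at percentile 40 (0.0503), without the filter (0.0736), without the variance trend (0.0799) and with only the 2 groups compared (0.1). The block for mouse number series, which leaves 1 IGF1R-dnPI3K mouse in this comparison, lost the call too. Leaving out the array that stood apart gave 0.35, which passed (0.0167).

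Vdac1, the main porin of the outer mitochondrial membrane, had signals of 41.1, 19.3 and 19.5 in IGF1R-caPI3K mice, 25.3, 46.4 and 63.0 in IGF1R-dnPI3K mice, and 82.3, 20.8 and 18.3 in IGF1R mice. It was at or below background on 7 of 9 arrays and was not tested. No level of Vdac1 can be read from this probe set.

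**Figure D5:**
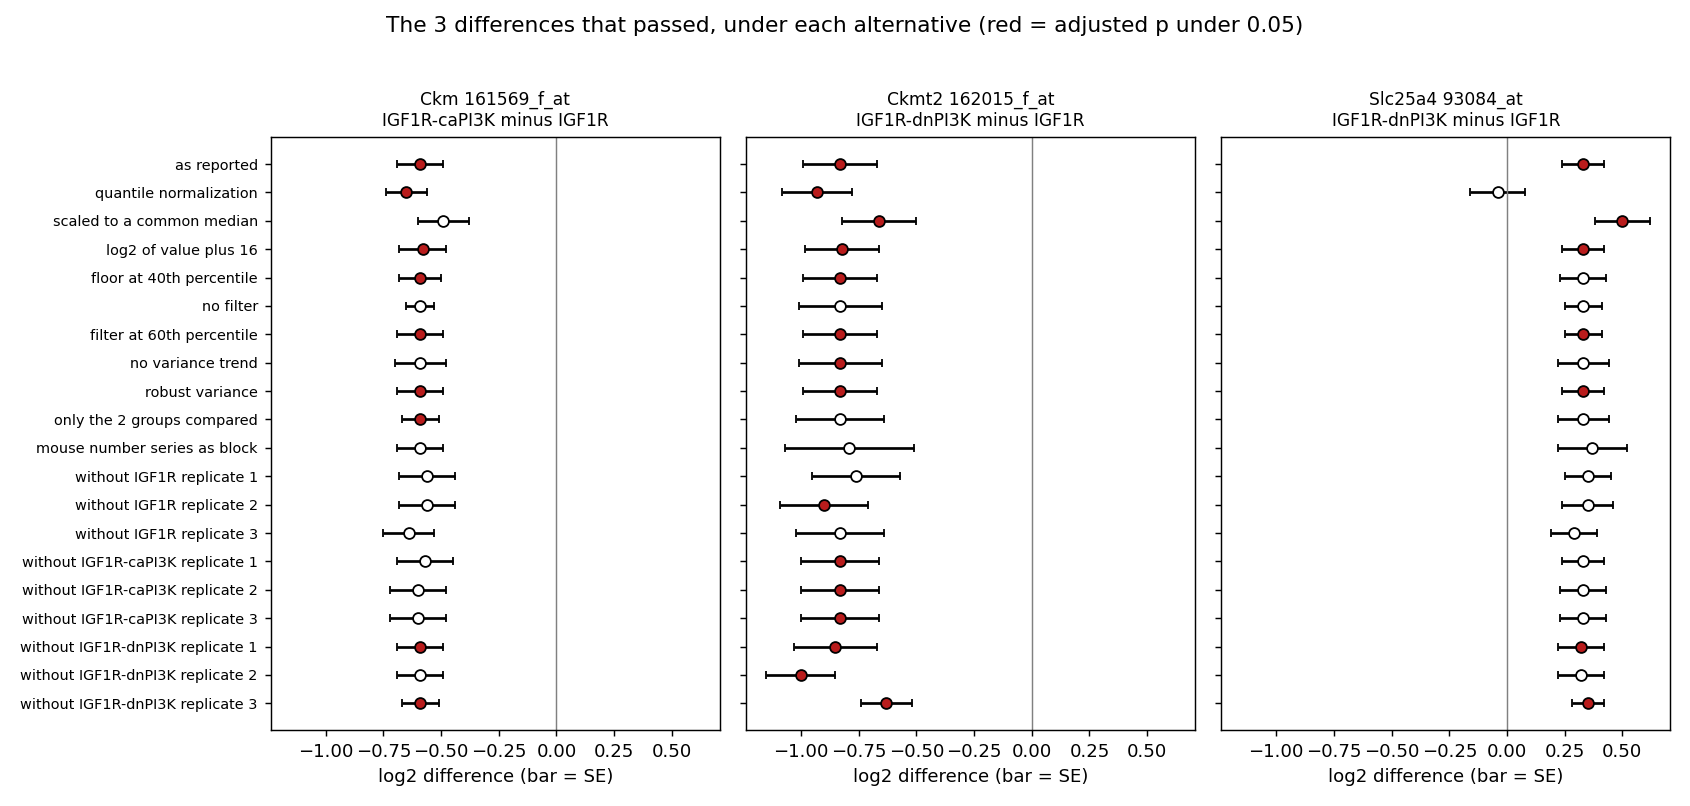
Log2 difference with its SE (x axis) of the 3 calls under the setting reported and 19 others (rows), red where the adjusted p was under 0.05. Ckm and Ckmt2 stay below 0 in every row with few red points for Ckm (-0.65 to -0.49) and more for Ckmt2 (-1.0 to -0.63), while Slc25a4 runs from -0.04 under quantile normalization to 0.50.

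Mouse numbers from the titles fall into series, which the labels do not explain. A first series comprises 2 IGF1R-caPI3K and 2 IGF1R mice, and in them the difference was -0.62 for Ckm 161569_f_at, -0.56 for Ckmt2 162015_f_at and 0.02 for Slc25a4. Another comprises 1 mouse of each group. In these the differences of IGF1R-caPI3K from IGF1R were -0.52 for Ckm, -0.55 for Ckmt2 and 0.22 for Slc25a4, and those of IGF1R-dnPI3K from IGF1R were -0.19, -0.79 and 0.44 for these probe sets. The remaining 2 IGF1R-dnPI3K mice form a series with no other group, so for them group and series cannot be told apart. A fit with the series as a block therefore sets 1 IGF1R-dnPI3K mouse against the other groups.

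The members were compared with each other over the 9 arrays by the Pearson correlation of log2 signal, as a description of arrays that share depth, scaling and group. Ckmt2 103618_at went with Mb at 0.913 and with Ak1 at 0.821, and these were 0.474 and 0.559 over the 8 arrays left without IGF1R-dnPI3K replicate 3. The 2 lower probe sets, Ckm 161569_f_at and Ckmt2 162015_f_at, went together at 0.648 over 9 arrays and 0.765 over the 8. Between the tested probe sets of 1 gene the correlation over 9 arrays was -0.558 for Ckm, -0.677 for Ckmt2 and -0.0705 for Ak3. Over the 8 arrays it was -0.576 for Ckm, -0.216 for Ckmt2 and 0.121 for Ak3, so the value for Ckmt2 and the sign for Ak3 rest on the array that stood apart.

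Of 5940 genes, those whose brightest tested probe set was most like that of Ckm over the 9 arrays were Dnaaf5 (r = 0.968), Meis1 (0.956) and Sod2 (0.945). Sod2, the manganese superoxide dismutase of mitochondria, differed from IGF1R by -0.45 in IGF1R-caPI3K hearts and by -0.31 in IGF1R-dnPI3K hearts. The genes most like Ckb were Arpc1a (0.957), Gadd45g (0.922) and Rapsn (0.906). Those most like Ckmt2 103618_at were Jund (0.965), Map1lc3a (0.957) and Usp5 (0.957). Jund, a subunit of the AP-1 transcription factor, differed from IGF1R by 0.27 in IGF1R-caPI3K hearts and 0.44 in IGF1R-dnPI3K hearts. All these genes were picked as the best of 5940 over the same arrays, so their differences repeat that choice and are no independent support. The ranking was not repeated without IGF1R-dnPI3K replicate 3.

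Other genes of the same exchange were taken from 4 lists, each gene by its brightest probe set. Of 20 genes of creatine supply and phosphotransfer, 10 were measured and tested. Between IGF1R-dnPI3K and IGF1R hearts 1 rose and 2 fell, against 5.7% and 7.8% of all probe sets, and 0 passed in each of the other comparisons in limma. The median difference was -0.03 in IGF1R-caPI3K hearts and -0.12 in IGF1R-dnPI3K hearts from IGF1R, against -0.03 and -0.08 over all genes.

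Gamt, which makes creatine from guanidinoacetate, had 720.0, 658.7 and 554.3 in IGF1R-caPI3K mice, 562.4, 648.9 and 511.1 in IGF1R-dnPI3K mice, and 944.5, 811.9 and 747.3 in IGF1R mice. Every mouse with a PI3K transgene lay below every IGF1R mouse. Gamt fell in IGF1R-dnPI3K hearts, by a difference of -0.54 (limma adjusted p = 0.0405), and its other probe set fell too, at -0.78 (0.0331). In IGF1R-caPI3K hearts the differences from IGF1R were -0.37 and -0.11, and neither passed (0.222 and 0.814). The call on the brightest Gamt probe set, whose name ends in _f_at, held in 7 of 19 other settings, with differences from -0.63 to -0.37.

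Ak4, a mitochondrial adenylate kinase, averaged 661 ± 61.8 in IGF1R-caPI3K mice, 486 ± 164 in IGF1R-dnPI3K mice and 873 ± 104 in IGF1R mice (SD, n = 3 each). It fell in IGF1R-dnPI3K hearts by a difference of -0.90 (limma adjusted p = 0.0328), while its other probe set, at -0.50, did not pass (0.176). The Ak4 call held in 11 of 19 other settings, and without IGF1R-dnPI3K replicate 3 the difference was -0.58 and passed (0.0359). Nme2, a nucleoside diphosphate kinase, averaged 8950 ± 731 in IGF1R-caPI3K mice, 10944 ± 1347 in IGF1R-dnPI3K mice and 8161 ± 337 in IGF1R mice, and rose in IGF1R-dnPI3K hearts by 0.42 on the log2 scale (limma adjusted p = 0.0371). With quantile normalization the Nme2 difference was 0.08 and did not pass (0.546), and the call held in 6 of 19 other settings.

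Of 8 genes of AMP-activated protein kinase, the sensor of the AMP that adenylate kinases form, and its upstream kinase, 3 were measured and tested. Prkab1, a regulatory subunit, averaged 582 ± 30 in IGF1R-caPI3K mice, 811 ± 98 in IGF1R-dnPI3K mice and 594 ± 38.9 in IGF1R mice, and rose in IGF1R-dnPI3K hearts by 0.44 on the log2 scale (limma adjusted p = 0.0436). The Prkab1 call held in 7 of 19 other settings, with differences from 0.35 to 0.70. It was the only 1 of the 3 to pass in any comparison. Of all probe sets, 5.7% were called higher between IGF1R-dnPI3K and IGF1R hearts. With the array of IGF1R-dnPI3K replicate 3 left out, Gamt at -0.46, Nme2 at 0.33 and Prkab1 at 0.46 no longer passed (limma adjusted p = 0.101, 0.0613 and 0.0681).

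Of 10 genes of exchange across the mitochondrial envelope, 9 were measured and tested. Between IGF1R-dnPI3K and IGF1R hearts 1 fell, where 7.8% of all probe sets did. Vdac2, another porin of the outer membrane, had 1039.1, 1258.3 and 1297.1 in IGF1R-caPI3K mice, 1361.3, 1550.6 and 563.3 in IGF1R-dnPI3K mice, and 2377.9, 2157.6 and 1989.5 in IGF1R mice. Every mouse with a PI3K transgene lay below every IGF1R mouse, with IGF1R-dnPI3K replicate 3 lowest. Vdac2 fell in IGF1R-dnPI3K hearts by a difference of -1.03 (limma adjusted p = 0.0471), and its other probe set, at -0.72, did not pass (0.153). Without IGF1R-dnPI3K replicate 3 the Vdac2 difference was -0.58 and passed (0.03), and the call held in 8 of 19 other settings. In IGF1R-caPI3K hearts the difference was -0.86 and did not pass (0.175). Of 5 genes that buffer oxygen or fatty acids, 2 were measured, Fabp3 and Hba-a1, and 0 passed in limma, with differences between IGF1R-dnPI3K and IGF1R hearts of -0.12 (adjusted p = 0.492) and 0.53 (0.0782). Hba-a1, a haemoglobin chain of red blood cells, was at 0.26 and passed (limma adjusted p = 0.0457) when IGF1R-dnPI3K replicate 3 was left out, at 0.67 and passed (0.0297) when replicate 1 was, and at 0.08 (0.559) with quantile normalization. With quantile normalization Fabp3, the heart fatty acid binding protein, was at -0.45 and passed as lower (0.0218), and with a common median it was at 0.05.

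Markers of other cell types moved between the same groups. Fibroblast markers, 9 of 9 measured, had a summed signal of 32488 to 36159 in IGF1R-caPI3K mice, 22110 to 26066 in IGF1R-dnPI3K mice and 30142 to 32797 in IGF1R mice, and 4 fell in IGF1R-dnPI3K hearts relative to IGF1R. Of 6 tested macrophage markers 3 fell in that comparison, and of 7 endothelial markers 2 fell and 1 rose. Over all probe sets 13.5% passed in that comparison, 7.8% as lower and 5.7% as higher. Between IGF1R-caPI3K and IGF1R hearts 0.215% of all passed, 0.0633% as lower. Smooth muscle markers, 5 tested, had 0 calls, with sums of 3084 to 3362 in IGF1R-caPI3K mice, 3751 to 4830 in IGF1R-dnPI3K mice and 3104 to 3523 in IGF1R mice. Cardiomyocyte markers had 0 higher and 1 lower in IGF1R-caPI3K hearts and 4 higher and 1 lower in IGF1R-dnPI3K hearts, each relative to IGF1R on the deposited scale. Their part in the differences of the members was not tested.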

How the data were processed

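RNA from the ventricles of 9 mice was measured on 9 Affymetrix arrays. The authors deposited 1 linear intensity for each probe set on each array. The sources used here do not say how it was computed or whether detection was called. The deposited values share a 2% trimmed mean of 500.3 to 500.4 on every array, so the arrays appear to have been scaled to it. Groups came from the sample titles, and replicates were numbered in deposit order. No pair of arrays in a group held the same values, with 18 to 29 identical probe sets.

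Of 12488 probe sets, 66 controls were left out. Gene symbols came from the platform annotation, in which 10833 of the rest had 1 symbol, 396 several and 1193 none. Signals below 32.4 (percentile 20 of all positive values) were set to it before log2. Tests covered the 7898 probe sets that exceeded percentile 40 on 3 or more arrays. All 9 arrays entered 1 linear model in limma 3.58.1 (R 4.3.3), with variances moderated along the mean signal, and p-values were adjusted by Benjamini-Hochberg over all 7898. They rest on the spread between mice within groups, pooled over the 3 groups, so each comparison also carries the spread of the group outside it. The median SD of log2 signal was 0.164 in IGF1R mice, 0.156 in IGF1R-caPI3K mice and 0.261 in IGF1R-dnPI3K mice.

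The members and lists were chosen with earlier results of these data known. All members are named with every probe set. Other list genes are named where their brightest probe set passed, or else the 3 with the lowest F-test p. For Ckm, Ckb and Ckmt2, the 3 genes with the highest correlation are named. Markers of muscle types were named after their values were seen. Alternatives were quantile normalization, a common median, other floors and filters, other variance models, fits of only the 2 groups compared, a block for the series of mouse numbers, another probe set of the gene and each array left out in turn.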

Additional observations from a re-analysis of the deposited data

How the results depend on the processing

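Of 576 member differences recomputed under another setting, 510 kept their direction and side of the threshold, 28 kept the direction and no longer passed, 5 came to pass and 33 changed sign. Most of the 576 were differences that did not pass as reported. Of those that did, the Ckm call held in 8 of 19 other settings of its probe set. The Ckmt2 call held in 14 of 19 and the Slc25a4 call in 6 of 19. No paired analysis was possible because each mouse number in the titles belongs to 1 mouse. The cause of the changes was not tested. The comparisons below are, in order, IGF1R-caPI3K minus IGF1R, IGF1R-dnPI3K minus IGF1R and IGF1R-caPI3K minus IGF1R-dnPI3K.

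With quantile normalization the sign turned for Ckmt2 103618_at (-0.14, -0.21 and 0.06), Mb 100614_at (-0.15, -0.22 and 0.07), Slc25a4 (-0.15 and -0.04 in the first 2) and, in the second alone, Ak1 (-0.12) and Myh6 (-0.07). A common median turned Fabp3 to 0.05 in the second. Over all probe sets, the median of IGF1R-dnPI3K minus IGF1R was -0.09 as deposited, 0 with quantile normalization and 0.08 with a common median. With another probe set of the gene in place of the brightest, the sign turned for Ckm (0.79, 0.07 and 0.72), Ckmt2 (-0.56, -0.83 and 0.27) and Ak3 (-0.36 and -0.34 in the first 2). With the number series as a block it turned in the second comparison for Ckm 160175_at (-0.09), Ak1 (-0.22) and Ak3 160233_at (-0.05), and in the third for Ckmt2 103618_at (0.05), Ak1 (0.09) and Ak3 160233_at (0.06). With the floor at percentile 40, Ckm 160175_at was -0.01 in the second. With single arrays left out, the sign turned for Ckm 160175_at in the second (-0.16 to 0.35), Ak1 in the first (-0.24 to 0.02) and second (-0.09 to 0.32), Ak3 160233_at in the first (-0.05 to 0.06) and Ak3 92492_at in the third (-0.28 to 0.13).

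The number of probe sets called, 17 in the first comparison, was 78 with quantile normalization, 3 with a common median, 67 with the floor at percentile 40, 59 with the filter at percentile 60, 7 without the variance trend, 699 with only the 2 groups, 1 with the block, 0 without the filter (limma) and 0 to 550 with single arrays left out. In the second, 1066 as reported, it was 387 without the filter, 657 without the trend, 132 with only the 2 groups, 5 with the block and 73 to 1861 with single arrays left out. In the third, 98 as reported, these settings gave 36, 45, 13, 8 and 10 to 539. For the F test, 572 as reported, it was 158 without the filter, 137 without the trend, 4 with the block and 48 to 1534 with single arrays left out.

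Of the member probe sets called, 1 in the first comparison, 0 were called with a common median, without the filter, without the trend and with the block, 2 with only the 2 groups, and 0 to 2 with single arrays left out. In the second, 2 as reported, 1 was called without the filter and 1 without the trend. Without the filter it was the brightest Ckm probe set, which did not pass as reported, so neither reported call held. Without the trend it was the Ckmt2 probe set called as reported. In the same comparison 0 were called with only the 2 groups, and 0 to 2 with single arrays left out. For the F test, 2 as reported, 1 was called with a common median or without the filter, 0 without the trend, and 0 to 3 with single arrays left out.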
